A study of Mus musculus with 37 samples.

Results

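The data describe 10 genes of glutathione and thioredoxin defence in cortical astrocytes of mice with and without post-traumatic epilepsy (PTE). They are Mgst1 and 9 textbook targets of the transcription factor NRF2, namely Gclc, Gclm, Gsta4, Gstm1, Hmox1, Nqo1, Slc7a11, Srxn1 and Txnrd1, and all 10 were found by Ensembl identifier among the 21975 genes of the tables. The set was selected on measured TPM of these libraries, and which contrast served the choice is not recorded. The contrast of PTE+ with PTE−, the study's main one, is treated as used and is given for the 10 genes as values with no test. The tests concern the injury and the 2 hemispheres of the same mouse, and they are not independent of the choice if it drew on those values too.

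NRF2, encoded by Nfe2l2, is held in the cytoplasm and marked for breakdown by KEAP1, and oxidants or electrophiles release it to bind antioxidant response elements beside its target genes. Astrocytes are known for a strong NRF2 response and supply neurons with glutathione precursors. Within the pathway, Slc7a11 imports cystine, Gclc and Gclm form the enzyme that limits glutathione synthesis, and Gstm1, Gsta4 and Mgst1 join glutathione to reactive molecules. Mgst1 sits in membranes of the endoplasmic reticulum and mitochondria and also reduces lipid peroxides. Txnrd1 recycles thioredoxin, Srxn1 repairs over-oxidised peroxiredoxins, Nqo1 reduces quinones and Hmox1 breaks down haem.

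RNA sequencing covered astrocytes from 20 mice at 4 months after surgery, of which 5 were sham and 15 had a controlled cortical impact (CCI), a piston injury to the cortex of 1 hemisphere. The ipsilateral cortex gave 19 libraries (5 sham, 10 PTE− and 4 PTE+) and the contralateral cortex 18 (5, 9 and 4), and 17 mice gave both (5 sham, 9 PTE− and 3 PTE+). All mice were wild-type males of 1 outbred stock, written CD1 in the methods and CD31 in the labels, and carried recording electrodes during video-EEG, which sorted the injured mice into PTE+ (seizures) and PTE− (no seizures). Their age was not given in the sources used here. No transgene or drug separated the groups, and cells were pulled out with beads against ACSA-2, an astrocyte surface antigen. In such bulk samples, fewer cells of a type and less RNA per cell cannot be told apart. Whether both hemispheres of a mouse were prepared or sequenced together was not given in the sources used here.

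The sequence shown first is the antioxidant response element core, TGACNNNGC, since it is the DNA word through which NRF2 acts. RefSeq promoter windows (250 bases before to 50 after the start site, GRCm38.p6) were held for 7 of the 10 genes, as 11 windows. The core was searched on both strands and was found in 4 of the 11 windows, 1 each for Mgst1, Gclm, Txnrd1 and Srxn1, against 12.39% of 32851 promoter windows of all genes. In each case the word lay on the strand opposite to the gene, so the capitals below mark its reverse complement on the gene's strand. None of the 4 words held the AP-1 site TGACTCA, which can overlap this core.
Mgst1, chr6:138140461-138140490, plus strand: gcggggcttgGCACGGTCAggaggcggggt
Gclm, chr3:122245413-122245442, plus strand: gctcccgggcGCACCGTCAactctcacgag
Txnrd1, chr10:82859104-82859133, plus strand: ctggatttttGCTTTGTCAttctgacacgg
Srxn1, chr2:152105542-152105571, plus strand: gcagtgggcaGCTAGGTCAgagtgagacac
The Mgst1 word began 56 bases before 1 of 2 RefSeq starts and lay in an exon, in an untranslated region, of a GENCODE transcript that starts earlier. The Gclm word began 134 bases before its start, outside any annotated gene, and the Txnrd1 word 92 bases before one of 3 starts, inside the gene and outside its annotated exons. The Srxn1 word began 28 bases after its start, in an exon and untranslated region. A match is a match of letters and not a measured binding site. Of these 4 genes, Mgst1 is called between the hemispheres of CCI mice below, and Gclm, Txnrd1 and Srxn1 are not. Of the genes whose windows held no match, Nqo1 is called there, and Slc7a11 and Gstm1 are not. Hmox1, also called there, had no window, and nothing is read from these matches.

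Levels are TPM, the share of a library's transcripts after correction for transcript length, so genes can be compared with each other. A gene was tested where its mean was above 5 TPM in a compared group, which all 10 passed, and was called where the unadjusted p of limma's test on log2(TPM + 1) was under 0.05 and the fold at least 1.2. Before the results, 1 library has to be set apart. In the ipsilateral library of PTE− mouse 9_14, 10727 genes were above 0 TPM, against 15599 to 18534 in the other 36 libraries, and 6.23% of the 6408 genes above 10 TPM in all other ipsilateral libraries were listed at 0. Its median rank correlation with the other ipsilateral libraries was 0.80, where the others had 0.963 to 0.975. Nqo1, Srxn1 and Txnrd1 were listed at 0 in it, so ipsilateral values are given with and without it, while mouse 9_14 had no contralateral library and no part in the paired comparisons. Astrocyte markers (10 genes) summed to between 6515 and 11731 TPM in the 37 libraries. Each of the 10 lists of markers had all its genes above 0 at the group medians, with microglia (10 genes) at 120 to 669 TPM and oligodendrocytes (10 genes) at 520 to 4463 TPM.

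Gstm1 stood far above the rest. Its median was 4450 TPM without library 9_14, at the 99.9th percentile of all genes, and it was above Mgst1 in 37 of 37 libraries. Mgst1 (217 TPM) and Gsta4 (205 TPM) followed and could not be ordered, Mgst1 being the higher in 22 of 37 libraries. Gclm (142 TPM) lay below Gsta4 in 36 of 37 libraries and above Gclc in all 37. Gclc (39.8 TPM), Nqo1 (35.5 TPM), Srxn1 (35.3 TPM) and Txnrd1 (33.5 TPM) overlapped, each above the next in 25, 16 and 18 of 37 libraries. Hmox1 (26.6 TPM) lay below Txnrd1 in 30 of 37 libraries, and Slc7a11 (18.6 TPM) was the lowest, below Hmox1 in 34. Gclm, the modifier subunit, was thus present at a higher transcript level than Gclc, the catalytic subunit, in each library. Of the 31-base words of Gstm1 transcripts, 28.8% also occurred in transcripts of 7 other genes, mostly Gstm2-ps1, so its level depends on how reads shared with these were divided. That share was 5.61% for Gclm, 2.84% for Slc7a11, 0.07% for Srxn1 and 0 for the other 6 genes.

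**Figure D1:**
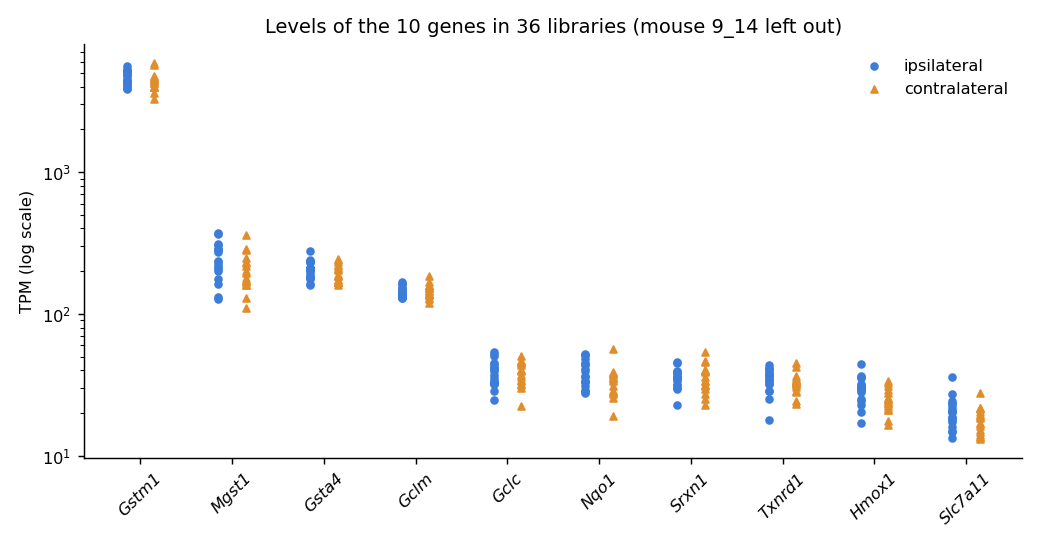
Each point is the TPM (log axis) of a gene in 1 library, with circles for ipsilateral and triangles for contralateral cortex, in 36 libraries without mouse 9_14. Gstm1 lies apart at a median of 4450 TPM, Mgst1, Gsta4 and Gclm form a middle tier, and the other 6 genes overlap at medians of 18.6 to 39.8 TPM.

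Between 0 and 3 of the 10 genes were called in each tested comparison, with Mgst1, Nqo1, Hmox1 and Gclc the only members called in any of them. In the ipsilateral cortex, 1 of the 10 (Hmox1, higher) was called between CCI and sham mice, where 1.62% of 10434 genes were called. In the contralateral cortex 2 were called (Hmox1 higher, Nqo1 lower), against 4.05% of 10556 genes. Between hemispheres of the same mouse, 0 of 10 were called in sham mice by limma, none of them with an unadjusted p under 0.05 (6.91% of 10601 genes), and 3 of 10 in CCI mice (Mgst1, Hmox1 and Nqo1, each higher on the injured side), against 4.51% of 10350 genes. The hemisphere difference itself differed between CCI and sham mice for 3 of 10 (Mgst1, Nqo1 and Gclc, each shifted toward the injured side), against 6.5% of 10695 genes. The median log2 difference of the 10 genes was 0.02 in the ipsilateral cortex (−0.01 over all genes tested) and 0.01 in the contralateral cortex (−0.07). For the hemispheres it was 0.09 in CCI mice (−0.01 over all genes) and −0.03 in sham mice (−0.09), and for the hemisphere difference 0.10 (0.08 over all genes).

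No member passed a Benjamini-Hochberg adjusted p of 0.05 in any of these limma tests, and the smallest were 0.0881 for Hmox1, 0.112 for Mgst1 and 0.154 for Nqo1 between the hemispheres of CCI mice. Part of the background moved with the scaling of the libraries. In sham mice 5.6% of the called genes were higher ipsilaterally, and 59.8% were after each library was centred on its median. For the hemisphere difference the share called higher went from 90.8% to 37% by that centring, and for contralateral CCI against sham from 13.3% to 62.2%. In ipsilateral CCI against sham the share went from 76.3% to 65%. For PTE+ against PTE− it went from 56.7% to 28% ipsilaterally and from 69.8% to 41% contralaterally. The calls of Mgst1 and Nqo1, both for the hemisphere difference and between hemispheres of CCI mice, stood under every alternative run, among which no PTE− mouse other than 9_14 was left out.

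**Figure D2:**
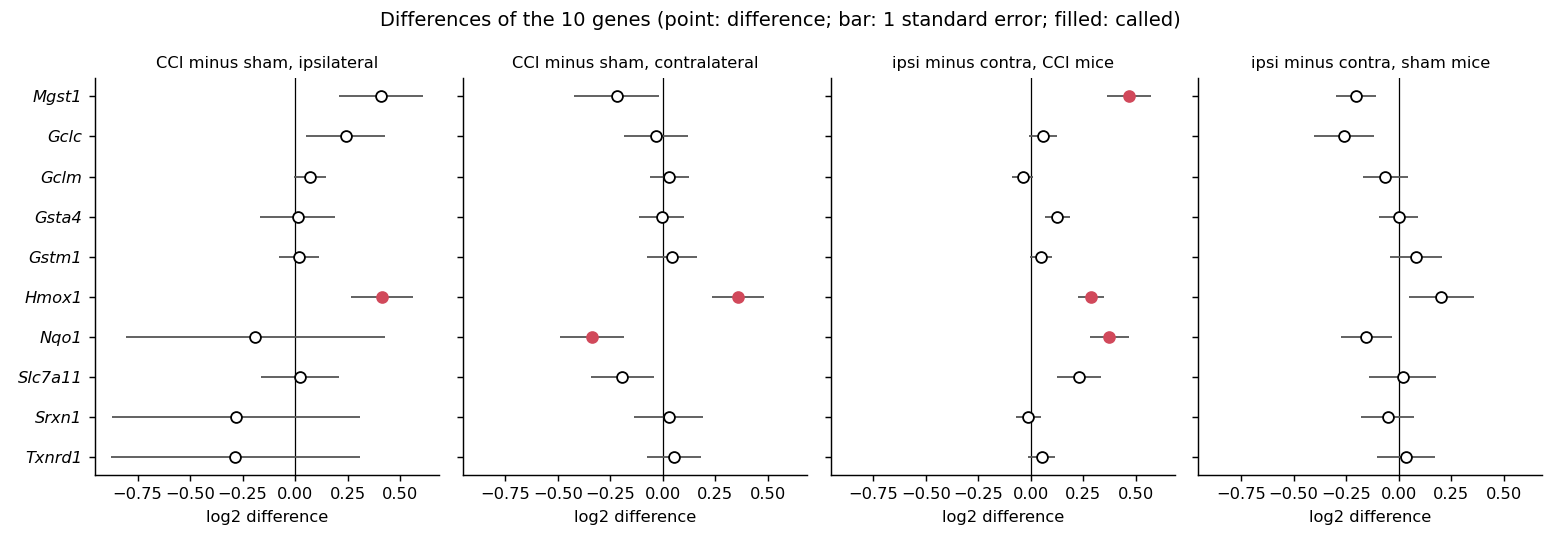
Log2 difference of log2(TPM + 1) for each gene (point) with 1 standard error (bar) in 4 comparisons, filled red where called. Hmox1 is to the right of 0 in all 4 panels, and Mgst1 is at 0.47 between hemispheres of CCI mice and at −0.20 between those of sham mice. The wide bars of Nqo1, Srxn1 and Txnrd1 in the ipsilateral panel include the library listed at 0.

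Mgst1 (ENSMUSG00000008540, chr6:138140316-138156755, plus strand, protein-coding, GRCm38) was higher on the injured side in each CCI mouse and lower on the operated side in each sham mouse. In sham mice its level went from 233 TPM contralaterally to 206 TPM ipsilaterally (mouse 8_15), from 359.7 to 307 (8_16), from 285 to 235 (9_9), from 129.6 to 126 (9_10) and from 160.1 to 131 (9_11). In the 3 PTE+ mice it went from 159 to 177 TPM (8_10), from 171 to 222 (9_17) and from 193 to 272 (9_18). In the 9 PTE− mice the ipsilateral level was up to 2.62 times the contralateral level, with a median of 1.27. Mouse 9_15 had the widest gap, 109.9 TPM contralaterally and 288 TPM ipsilaterally, and mouse 8_9 had almost none, 202 TPM on both sides.

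Over the 12 CCI mice the mean hemisphere difference of Mgst1 was 0.47 ± 0.41 on the log2 scale (SD, n = 12), a fold of 1.38, and 12 of 12 mice had the higher level ipsilaterally. Its limma p was 0.000386 (adjusted 0.112), and an exact two-sided sign-flip permutation test gave 0.000488, the smallest value that 12 pairs allow. In sham mice the mean difference was −0.20 ± 0.10 (SD, n = 5), lower in 5 of 5 mice, with an exact permutation p of 0.0625, the smallest 5 pairs allow, and a limma p of 0.0541. Injured and sham mice therefore did not overlap in this measure, but the share of all genes that separate in this way was not counted. Of the 10695 genes tested for the hemisphere difference, 67.3% were shifted toward the injured side in CCI against sham mice, with a median of 0.08. In sham pairs 30.4% of the 10601 genes tested were higher ipsilaterally, with a median difference of −0.09, so a fall there was common to most genes. The hemisphere difference was larger in CCI than in sham mice by 0.67 (SE 0.17), with a limma p of 0.000994 (adjusted 0.569) and an exact two-sided permutation p of 0.00372. The shift was 0.55 after median centring and 0.71 after quantile normalisation.

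By the number that begins the mouse's name, whose meaning the sources used here do not give, the CCI difference was 0.21 ± 0.15 in the 5 mice beginning with 8 and 0.65 ± 0.45 in the 7 beginning with 9 (SD). It was −0.20 in the sham mice of either number (2 and 3 mice). Markers of other cells also differed between the hemispheres of CCI mice. The summed microglia list was higher ipsilaterally in 10 of 12 mice (median ratio 1.24), the ependymal list (5 genes) in 8 of 12 (1.42) and the oligodendrocyte list in 4 of 12 (0.694), while the astrocyte list had a median ratio of 0.973. In sham mice the ratios were 0.955 for microglia, 0.779 for ependymal cells, 0.971 for oligodendrocytes and 0.881 for astrocytes. Their part in the Mgst1 result was not tested.

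**Figure D3:**
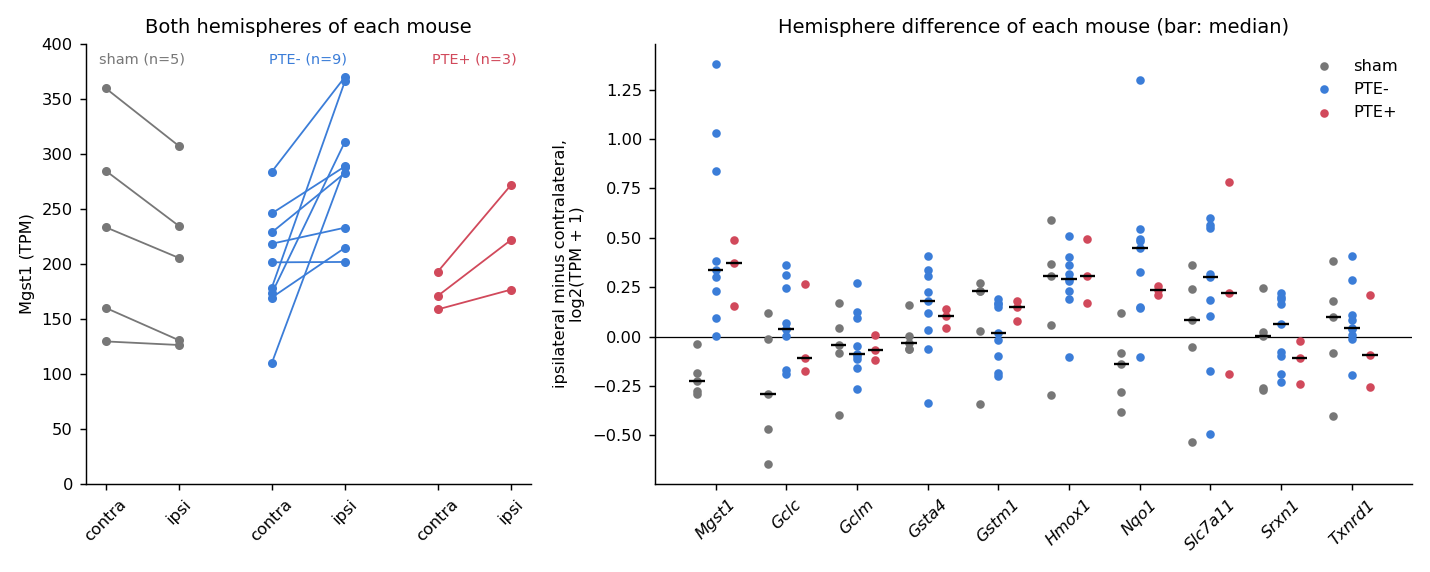
Left, Mgst1 in TPM in the contralateral and ipsilateral cortex of each mouse, joined by a line. Right, ipsilateral minus contralateral log2(TPM + 1) of each gene, with 1 point per mouse and a bar at the group median (5 sham, 9 PTE− and 3 PTE+ mice). All 5 sham lines of Mgst1 fall and all 12 lines of CCI mice rise, and on the right Nqo1 is above 0 in 11 of 12 CCI mice and in 1 of 5 sham mice.

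Seen within a hemisphere, the Mgst1 groups overlapped. Ipsilateral levels were 201 ± 75.8 TPM in sham (SD, n = 5), 279.8 ± 58.2 in PTE− (n = 10) and 208 ± 49.1 in PTE+ mice (n = 4). The CCI mean was above sham by 0.41 on the log2 scale (SE 0.20), which did not pass the test (limma p 0.0545, adjusted 1, and 0.0728 by an exact two-sided permutation test). Only 3 of 14 CCI libraries were above every sham library, all of them PTE−. The difference passed without sham mouse 8_16 (0.58) or 9_9 (0.49) or PTE+ mouse 8_10 (0.45) or 9_19 (0.46) and in a fit of the 3 groups (0.41, limma p 0.0416), and was 0.26 without sham mouse 9_10 and 0.28 without 9_11. The CCI and sham means were 264 and 256 TPM among mice beginning with 8 and 257 and 164 TPM among those beginning with 9. Contralateral levels were 234 ± 93.2 TPM in sham (n = 5), 201 ± 50.7 in PTE− (n = 9) and 172 ± 14.8 in PTE+ mice (n = 4), and CCI was below sham by −0.22 (SE 0.20, limma p 0.291, exact permutation p 0.333). Sham mice were widely spread in both hemispheres, and mice 9_10 and 9_11 were low in both. The contralateral CCI and sham means were 214 and 297 TPM among mice beginning with 8 and 173 and 191 TPM among those beginning with 9.

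Mgst1 in PTE+ against PTE− mice is given as a description. Ipsilateral PTE+ libraries held 177 TPM (8_10), 222 (9_17), 272 (9_18) and 163 TPM (9_19), and PTE− libraries a lowest of 202, a median of 285 and a highest of 369.9 TPM. All 4 PTE+ values were below the PTE− median, and 2 of 4 were below every PTE− library. The share of all genes with such counts was not counted. The log2 difference was −0.43 (SE 0.17), or −0.44 without library 9_14, while the median over all genes tested was 0.12. Mgst1 was the 1 member past the limits of a call there, beside 0.573% of 10473 genes, and nothing is read from that count. Contralaterally, PTE+ libraries held 159 (8_10), 166 (8_17), 171 (9_17) and 193 TPM (9_18), against 109.9, 202 and 284 TPM for the lowest, median and highest PTE− library. All 4 PTE+ libraries were again below the PTE− median but inside the PTE− range, with a log2 difference of −0.18 (SE 0.19). None of the 10 genes was past those limits there, beside 2.79% of 10423 genes, and nothing is read from that count either. The paper, which tested raw counts rather than TPM, listed Mgst1 among the genes lower in PTE+ mice in both hemispheres. These 2 contrasts share 3 of their PTE+ mice and 9 of their PTE− mice.

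**Figure D4:**
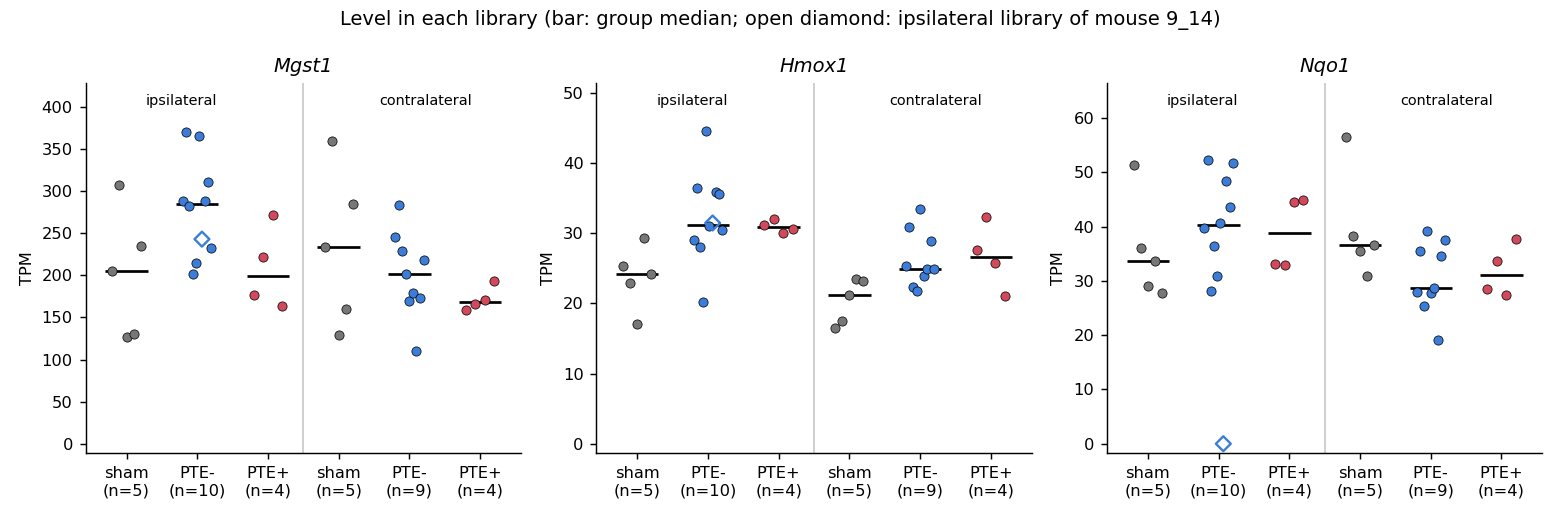
TPM of Mgst1, Hmox1 and Nqo1 in each library by group and hemisphere, with bars at the group medians and an open diamond for the ipsilateral library of mouse 9_14. Ipsilateral Mgst1 has medians of 206, 285 and 199 TPM in sham, PTE− and PTE+ libraries, Hmox1 is above sham in most CCI libraries of both hemispheres, and Nqo1 is listed at 0 in library 9_14.

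Gstm1 and Gsta4, the soluble glutathione transferases of the set, had no called difference. Gstm1 group means ran from 4193 ± 389 TPM (contralateral PTE+, SD, n = 4) to 4669 ± 462 TPM (ipsilateral PTE+, n = 4), and its log2 differences between CCI and sham were 0.02 and 0.04. It was higher ipsilaterally in 8 of 12 CCI and 4 of 5 sham mice, with mean differences of 0.05 and 0.08. Gsta4, which handles the lipid peroxidation product 4-hydroxynonenal, had group means of 192 to 203 TPM in all 6 groups, or 216 TPM for ipsilateral PTE− mice without library 9_14, where it stood at 87.0 TPM. It was higher ipsilaterally in 10 of 12 CCI mice, by 0.13 (SE 0.06), which did not pass the test (limma p 0.0527, exact permutation p 0.0547). The PTE+ to PTE− differences were 0.03 and −0.11 for Gstm1 and 0.01 and −0.04 for Gsta4 in ipsilateral and contralateral cortex, or −0.12 for ipsilateral Gsta4 without library 9_14.

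Among the genes of glutathione synthesis, Gclc was called for its hemisphere difference and Gclm was not. Gclc (ENSMUSG00000032350, chr9:77754535-77794485, plus strand) in sham mice went from 39.8 TPM contralaterally to 28.4 ipsilaterally (8_15), from 22.6 to 24.6 (8_16), from 43.4 to 35.4 (9_9), from 50.5 to 31.9 (9_10) and from 44.8 to 44.4 (9_11). In PTE+ mice it went from 34.4 to 31.8 (8_10), from 46.7 to 41.3 (9_17) and from 37.1 to 44.9 TPM (9_18), and in the 9 PTE− mice the ratio lay between 0.876 and 1.29. The ipsilateral level was thus lower in 4 of 5 sham mice and higher in 8 of 12 CCI mice, and the groups overlapped. The difference between CCI and sham mice was 0.32 (SE 0.13, limma p 0.0264, adjusted 0.709, exact permutation p 0.0229). That call was lost without sham mouse 9_10 (0.22) or 8_15 (0.27) and after median centring (0.20) or quantile normalisation (0.25).

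Gclc levels also followed the number that begins the mouse's name. In contralateral cortex CCI mice beginning with 8 held 29.8 to 35.8 TPM and those beginning with 9 held 37.1 to 46.7 TPM, with no overlap. The share of all genes that separate by this number was not counted. Sham mice beginning with 8 held 22.6 and 39.8 TPM (mean 31.2, n = 2), and those beginning with 9 held 43.4 to 50.5 TPM (mean 46.2, n = 3). In ipsilateral cortex, CCI against sham was 0.24 (SE 0.19, limma p 0.215). Without library 9_14, where Gclc was 18.8 TPM, it was 0.32 and called, with an exact permutation p of 0.042.

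Gclm group means ran from 138 to 150.1 TPM, its CCI to sham differences were 0.07 and 0.03, and its hemisphere differences were −0.04 in CCI and −0.06 in sham mice. Slc7a11, the cystine importer, was the least abundant member, with group medians of 16.2 to 22.6 TPM. It was higher ipsilaterally in 9 of 12 CCI mice, by 0.23 (SE 0.10, limma p 0.0424, exact permutation p 0.0596), a fold of 1.17 that fell short of a call. That difference was 0.41 in the 7 CCI mice beginning with 9 and −0.02 in the 5 beginning with 8. Contralaterally CCI was below sham by −0.19 (SE 0.15, limma p 0.21). The PTE+ to PTE− differences in ipsilateral and contralateral cortex were 0.16 and 0.02 for Gclc, −0.07 and −0.09 for Gclm, and 0.16 and 0.08 for Slc7a11. Without library 9_14 the ipsilateral one of Gclc was 0.06.

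Txnrd1 and Srxn1, the thioredoxin and sulfiredoxin enzymes, showed no called difference. Without library 9_14, Txnrd1 held 25.0 to 40.9 TPM in ipsilateral CCI libraries against 18 to 43.5 TPM in sham, and its log2 difference was 0.08 (exact permutation p 0.635). With that library, at 0 TPM, the difference was −0.29 with an SE of 0.59. Srxn1 held 29.3 to 45.5 TPM in ipsilateral CCI libraries without 9_14 against 23.0 to 39.8 TPM in sham, a difference of 0.09 (exact permutation p 0.472), or −0.28 with it. Between hemispheres of CCI mice the differences were 0.05 for Txnrd1 and −0.01 for Srxn1. Srxn1 was higher ipsilaterally in 4 of the 5 CCI mice beginning with 8 and in 1 of the 7 beginning with 9. Contralateral PTE+ to PTE− differences were 0.14 for Txnrd1 and 0.06 for Srxn1, and the ipsilateral ones were 0.08 and 0.01 without library 9_14 and 0.59 and 0.53 with it.

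Nqo1 (ENSMUSG00000003849, chr8:107388225-107403206, minus strand), which reduces quinones by 2 electrons and is a standard NRF2 reporter gene, was higher on the injured side in most CCI mice and lower there in most sham mice. Contralateral sham libraries held 56.6 (8_15), 38.4 (8_16), 36.6 (9_9), 35.4 (9_10) and 30.9 TPM (9_11), and the ipsilateral libraries of the same mice 51.4, 36.1, 27.9, 29.0 and 33.7 TPM. In PTE+ mice Nqo1 went from 28.5 TPM contralaterally to 33.2 ipsilaterally (8_10), from 27.4 to 32.9 (9_17) and from 37.7 to 44.6 (9_18). In PTE− mice the ipsilateral level was 0.927 to 2.54 times the contralateral one (median 1.38), the highest ratio again being that of mouse 9_15. The ipsilateral level was higher in 11 of 12 CCI mice and in 1 of 5 sham mice.

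The mean hemisphere difference of Nqo1 was 0.37 ± 0.35 in CCI (SD, n = 12, limma p 0.00111, adjusted 0.154, exact permutation p 0.000977) and −0.15 ± 0.19 in sham mice (n = 5, exact permutation p 0.188). The 2 differed by 0.53 (SE 0.16, limma p 0.0041, adjusted 0.569, exact permutation p 0.00339). By the number of the mouse's name, the CCI difference was 0.26 in the 5 mice beginning with 8 and 0.46 in the 7 beginning with 9, and the sham difference −0.11 and −0.18. The marker ratios given for Mgst1 are those of the same mice, and their part in the Nqo1 result was not tested.

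In contralateral cortex Nqo1 was lower in CCI (31.02 ± 5.88 TPM, SD, n = 13) than in sham mice (39.6 ± 9.90, n = 5), by −0.34 on the log2 scale (SE 0.15, limma p 0.0387, adjusted 0.978, exact permutation p 0.0431). Of the CCI libraries, 7 of 13 were below every sham library, and the share of all genes that separate as well was not counted. The call was lost after quantile normalisation (−0.26), median centring (−0.24) or array weighting (−0.33), and without sham mouse 8_15 (−0.20) or 8_16 or PTE+ mouse 8_10 or 9_17 (−0.34 to −0.32). The CCI and sham means were 31.7 and 47.5 TPM among mice beginning with 8 and 30.4 and 34.3 TPM among those beginning with 9. In ipsilateral cortex the CCI libraries other than 9_14 held 28.1 to 52.2 TPM, the sham libraries 27.9 to 51.4 TPM, and the log2 difference was 0.19 without 9_14 and −0.19 with it. The PTE+ to PTE− differences were −0.07 ipsilaterally without 9_14, 0.46 with it, and 0.07 contralaterally.

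Hmox1 (ENSMUSG00000005413, chr8:75093621-75100589, plus strand), the inducible haem oxygenase, was the only member called higher in CCI than in sham mice in both hemispheres. Ipsilateral sham libraries held 25.3 (8_15), 22.9 (8_16), 24.2 (9_9), 17.03 (9_10) and 29.3 TPM (9_11). Ipsilateral PTE+ libraries held 31.2 (8_10), 32.0 (9_17), 30.01 (9_18) and 30.7 TPM (9_19), all above every sham library, and PTE− libraries a lowest of 20.2, a median of 31.2 and a highest of 44.6 TPM. In all, 11 of 14 CCI libraries were above every sham library. The share of all genes that separate as well as this was not counted. CCI exceeded sham by 0.41 (SE 0.15), a fold of 1.33, with a limma p of 0.0104 (adjusted 1) and an exact two-sided permutation p of 0.0049. The call was lost without sham mouse 9_10 (0.30), and the difference without library 9_14 was the same at 0.41.

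Contralateral sham libraries held 16.5 (8_15), 17.6 (8_16), 23.3 (9_9), 21.2 (9_10) and 23.5 TPM (9_11) of Hmox1. Contralateral PTE+ libraries held 27.6 (8_10), 32.4 (8_17), 25.7 (9_17) and 21.1 TPM (9_18), and PTE− libraries a lowest of 21.8, a median of 24.9 and a highest of 33.4 TPM. Here 10 of 13 CCI libraries were above every sham library, though the share of all genes that do as well was again not counted. CCI exceeded sham by 0.36 (SE 0.12, limma p 0.00877, adjusted 0.978, exact permutation p 0.00572). This call stood under every alternative run. Among mice beginning with 8 the CCI and sham means were 29.0 and 24.1 TPM ipsilaterally and 26.7 and 17 contralaterally, and among those beginning with 9 they were 33.5 and 23.5, and 26.1 and 22.6 TPM.

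Hmox1 was also higher ipsilaterally in 11 of 12 CCI mice, by 0.29 ± 0.16 (SD, n = 12, limma p 0.000247, adjusted 0.0881, exact permutation p 0.000977). It was higher ipsilaterally in 4 of 5 sham mice too, by 0.20 ± 0.34 (n = 5, exact permutation p 0.188), and the difference between CCI and sham mice was 0.08 (SE 0.13, limma p 0.532), and −0.04 after median centring or quantile normalisation. By the number of the mouse's name the CCI difference was 0.16 and 0.38 in mice beginning with 8 and 9, and the sham difference 0.48 and 0.02. PTE+ and PTE− mice differed by −0.03 ipsilaterally and 0.02 contralaterally. After array weighting the difference between hemispheres of CCI mice was 0.26 with a fold under the limit. Hmox1 is also made by microglia and macrophages. The microglia list summed to 120 to 669 TPM in ipsilateral sham, 120 to 413 TPM in ipsilateral PTE− and 145 to 286 TPM in ipsilateral PTE+ libraries, and to 139.7 to 539.9 TPM in contralateral sham, 156 to 331 TPM in contralateral PTE− and 167 to 348 TPM in contralateral PTE+ libraries. Its medians were 189, 285 and 206 TPM in ipsilateral sham, PTE− and PTE+ libraries and 174, 226 and 218 TPM in the contralateral ones. The erythrocyte list (5 genes) summed to 502 to 12624 TPM ipsilaterally and was higher ipsilaterally in 4 of 12 CCI and 3 of 5 sham mice. Their part in the Hmox1 result was not tested.

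The wider pathway was read from 7 lists (90 genes with the 10 members): NRF2 regulators, glutathione synthesis, glutathione transferases, peroxidases and dismutases, thioredoxins and glutaredoxins, quinone, haem and iron genes, and NADPH supply. Of the 80 genes that are not members, 72 were tested in ipsilateral CCI against sham, with 0 called by limma, 0 of them at an unadjusted p under 0.05, and 36 higher and 36 lower. Contralaterally 0 of 71 were called higher and 2 lower, the theta-class transferases Gstt3 (−0.54, limma p 0.013, mean 32.8 TPM in CCI and 46.8 in sham) and Gstt2 (−0.47, limma p 0.0318, 29.3 and 39.6 TPM). The NRF2 regulators, with Nfe2l2 (84.4 TPM on average) and Keap1 (58.6 TPM) among them, had 0 called genes of 7 tested in each of the 7 comparisons. Over all genes the share called in these comparisons ran from 0.573% to 6.91%, so nothing is read from that count.

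Between hemispheres of CCI mice 2 of 72 non-members were called, the aldo-keto reductase Akr1b8 (0.44 higher ipsilaterally, limma p 0.00722) and the glutathione-degrading enzyme Chac2 (−0.34, limma p 0.00575). In sham mice 2 of 71 were called lower ipsilaterally, Gstt2 (−0.38) and the thioredoxin inhibitor Txnip (−0.37), and the same pair was called for the hemisphere difference (0.48 and 0.54, limma p 0.0201 and 0.0386). Between PTE+ and PTE− mice 0 of 72 were called ipsilaterally by limma, with 0 at an unadjusted p under 0.05. Contralaterally 3 of 71 were called, with the exporter Abcc4 (0.54, limma p 0.0322) and the reductase Txnrd3 (0.39, limma p 0.0366) higher in PTE+ and the biliverdin reductase Blvrb lower (−0.27, limma p 0.0152). The share of non-members called was thus 0% in both ipsilateral contrasts, 2.82% for contralateral CCI against sham, 4.23% for contralateral PTE+ against PTE−, 2.82% between hemispheres of sham mice, and 2.78% both between hemispheres of CCI mice and for the hemisphere difference. Over all genes tested, CCI against sham had 1.62% ipsilaterally and 4.05% contralaterally, and PTE+ against PTE− had 0.573% and 2.79%. Between hemispheres it was 6.91% in sham and 4.51% in CCI mice, and 6.5% for the hemisphere difference. With so few genes in the lists, nothing is read from these counts.

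Across the 37 libraries, genes whose level followed Mgst1 closely among 10235 genes above 5 TPM included Serpina3n (Spearman rho 0.69), a marker of reactive astrocytes, Tspan6 (0.678), Cebpd (0.662), a stress-responsive transcription factor, and Bricd5 (0.657). Without library 9_14, Cd59a (0.688) replaced Bricd5. Among the members, Gsta4 (0.578) and Nqo1 (0.426) followed Mgst1, while Srxn1 (−0.346), Gclc (−0.266) and Txnrd1 (−0.259) ran the other way. Over the 45 pairs of members, in the 36 libraries other than 9_14, the median rho was 0.118, from −0.496 for Gstm1 with Srxn1 to 0.661 for Gclc with Txnrd1. These correlations describe libraries that share mice, hemispheres, their mixture of cells and the number that begins the mouse's name, and no p is given for them. In contralateral CCI mice beginning with 8 and 9, Mgst1 means were 214 and 173 TPM. Those of Gclc were 32.9 and 43.0, of Srxn1 31.8 and 39.7, and of Txnrd1 30.3 and 35.7 TPM. Ipsilaterally, with library 9_14, they were 264 and 257 for Mgst1, 33.7 and 42.8 for Gclc, 35.4 and 32.2 for Srxn1, and 29.7 and 33.6 TPM for Txnrd1. The part of this number in the correlations was not tested. Serpina3n had medians of 71.3, 132.5 and 107 TPM in ipsilateral sham, PTE− and PTE+ libraries and 57.3, 64.6 and 44.0 TPM contralaterally.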

How the data were processed

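Astrocyte RNA was sequenced by the authors from SMART-Seq v4 libraries. Per the labels and the study's methods, reads were trimmed with Trim Galore 0.6.4 and quantified on mm10 with Bowtie2 2.4.1 and RSEM 1.2.28, and the authors deposited TPM for each Ensembl gene in 1 table per hemisphere. The submitters' notes also name DESeq2 1.36.0, which needs counts and was not run here. TPM are scaled within each library, so both tables could be joined, but they hold no depth: the depth of each library is unknown and counting error cannot be separated from other spread. RSEM shares reads between similar genes by estimation.

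Symbols and positions came from GENCODE vM21 (GRCm38, 21856 of 21975 identifiers matched) and promoter windows from RefSeq (GRCm38.p6). The members and lists were chosen with earlier results of these data known. Log2(TPM + 1) was tested with limma 3.58.1 (R 4.3.3, variance trend, mean above 5 TPM in a compared group), with the mouse as a block between hemispheres because both libraries come from the same animal. A call needed p under 0.05 and a fold of at least 1.2, and adjusted p-values are Benjamini-Hochberg over all genes tested. Single genes were also compared by exact two-sided permutation tests. The samples are separate mice, and "SD" is over mice. Some of the fits were tested on simulated data with independent noise in each library. These data held no effect of the mouse and no shift of whole libraries, so they do not cover either. All 10 members are named, as are called pathway genes and the genes of highest Spearman rho with Mgst1, of which 1 is not reported here. Alternatives were the pseudocount (0.1), filters (none, 1 TPM), quantile normalisation, median centring, array weights, no fold threshold, the number in the mouse's name as a covariate, a 3-group fit, no mouse block, and leaving out mice.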

Additional observations from a re-analysis of the deposited data

Results flagged for a closer look

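In 60 groups of 4 to 10 libraries, 1 library lay far outside the others for 7 gene and group pairs, where chance flags about 1 in 20 groups. The ipsilateral library of PTE− mouse 9_14 accounted for 5 of them, with Gclc at 18.8 TPM, Gsta4 at 87.0 TPM and Nqo1, Srxn1 and Txnrd1 listed at 0. The other 2 were Gclm in contralateral sham mouse 8_15 (186 TPM) and Gstm1 in contralateral PTE− mouse 9_12 (5890.2 TPM). The hemisphere difference was called between CCI and sham mice for 3 members, against 6.5% of 10695 genes. It was 0.67 for Mgst1, 0.53 for Nqo1 and 0.32 for Gclc on the log2 scale (ipsilateral minus contralateral, CCI minus sham). Their adjusted limma p-values were 0.569, 0.569 and 0.709, so none passed 0.05. The call of Gclc was lost after median centring or quantile normalisation, and in other alternatives given above and below.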

How the results depend on the processing

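Among the values with a test, 672 kept direction and side of the threshold, 13 passed it only under the alternative, 14 passed it only in the reported analysis and 71 changed sign. The calls of Mgst1 and Nqo1 between hemispheres of CCI mice and for the hemisphere difference, and of Hmox1 in contralateral CCI, were kept throughout. The cause of the changes was not tested.

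The number of members called moved in 6 of the 7 comparisons. In ipsilateral CCI against sham it went from 1 to 2 with array weights or a 3-group fit and lay between 0 (without sham 9_10) and 2 (as without 9_14) when mice were left out. In ipsilateral PTE+ against PTE−, where the count is a description only, it was 1, 0 with a 3-group fit and 0 to 1 with mice left out. In contralateral CCI against sham it went from 2 to 1 with quantile normalisation, median centring or array weights (1 to 2). In sham pairs it went from 0 to 1 with the same 3 settings, by Hmox1 in the first 2 and Gclc in the third (0 to 1 with mice left out, Gclc being called without 8_16). For the hemisphere difference it went from 3 to 2 with quantile normalisation or median centring (2 to 3 with mice left out). In CCI pairs it went from 3 to 2 with array weights (Hmox1 lost) and to 4 without the fold threshold (3 to 4 with mice left out). Without the replicate block, that is, without pairing the libraries of a mouse, 2 members were called for the hemisphere difference (Gclc lost), 3 in CCI pairs and 0 in sham pairs, while all genes called went from 695 to 206, from 467 to 280 and from 732 to 126.

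Genes called over the whole table also moved. In ipsilateral CCI they went from 169 to 318 (quantile), 843 (array weights), 379 (no filter), 273 (filter at 1 TPM), 399 without 9_14 and 415 without sham 9_11. In ipsilateral PTE+ they went from 60 to 135, 441, 171 and 197 with quantile normalisation, array weights, no filter and no 9_14, and to 121 without 8_10 and 23 without 9_17. In contralateral CCI they went from 428 to 682 (no filter), 883, 728 and 231 without sham 9_9, 8_16 and 9_11, and 667 without PTE+ 9_17. In contralateral PTE+ they went from 291 to 828 (array weights), 458 (no filter) and 489 without 9_18. In sham pairs they went from 732 to 452 (quantile), 470 without 8_15 and 339 without 9_10, in CCI pairs from 467 to 718 (no filter), 725 (filter at 1 TPM) and 981 (no fold threshold), and for the hemisphere difference from 695 to 1143 (no filter), 403 without sham 9_10 and 1094 without 9_11. The median of all genes moved by 0.12 with median centring in sham pairs (−0.091 to 0.029) and for the hemisphere difference (0.082 to −0.037).

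Signs changed only for values that were not called. In ipsilateral CCI these were Slc7a11 (−0.0025, quantile), Gsta4 (−0.0155), Gstm1 (−0.0089) and Slc7a11 (−0.0053) with centring, and Nqo1 (0.2152), Srxn1 (0.0397) and Txnrd1 (0.1574) with array weights. In contralateral CCI they were Gclc (0.0204) and Gstm1 (−0.0278) with quantile normalisation, Gclc (0.0665) and Gsta4 (0.0936) with centring, and Gsta4 (0.035), Srxn1 (−0.0584) and Txnrd1 (−0.0047) with array weights. In sham pairs they were Gstm1 (−0.0815) and Srxn1 (0.032) with quantile normalisation, Gclm (0.0565) and Srxn1 (0.0679) with centring, and Gsta4 (−0.004) and Slc7a11 (−0.0279) with array weights. For the hemisphere difference they were Gstm1 (0.1251), Hmox1 (−0.0387), Srxn1 (−0.0371) and Txnrd1 (−0.085) with quantile normalisation, Gclm (−0.0954), Hmox1 (−0.0351), Srxn1 (−0.0789) and Txnrd1 (−0.1019) with centring, and Gclm (−0.0055) and Txnrd1 (−0.0388) with array weights.

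Sham mice, PTE+ mice and, in ipsilateral comparisons, PTE− mouse 9_14 were left out in turn, and values that changed sign ranged as follows. In contralateral CCI against sham the ranges were Gclc −0.2234 to 0.0585, Gclm −0.0107 to 0.1235, Gsta4 −0.076 to 0.0742, Gstm1 −0.0494 to 0.1448, Srxn1 −0.1211 to 0.1316, Txnrd1 −0.0416 to 0.1035. For the hemisphere difference the ranges were Gclm −0.0599 to 0.0814, Gstm1 −0.1402 to 0.0124, Hmox1 −0.0411 to 0.1807, Srxn1 −0.0141 to 0.1147, Txnrd1 −0.0927 to 0.1042. In sham pairs the ranges were Gclm −0.1206 to 0.0207, Gsta4 −0.0376 to 0.0175, Slc7a11 −0.0662 to 0.159, Srxn1 −0.126 to 0.0028, Txnrd1 −0.0516 to 0.1453. In ipsilateral CCI against sham the ranges were Gsta4 −0.0577 to 0.1021, Gstm1 −0.0371 to 0.0978, Nqo1 −0.2658 to 0.1936, Slc7a11 −0.0786 to 0.2283, Srxn1 −0.4129 to 0.0887, Txnrd1 −0.4884 to 0.0823. In CCI pairs, where only the 3 PTE+ mice were left out, the ranges were Srxn1 −0.0103 to 0.0095.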
